A study of Homo sapiens with 18 samples.

Results

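The 9 transcription factor genes described here act in the monocyte lineage: SPI1, CEBPA, CEBPB, CEBPD, CEBPE, RUNX1, GFI1, KLF4 and MYB. They were followed in THP-1 cells, a human acute monocytic leukaemia line. They were taken by gene symbol, with earlier results of these data known, and all 9 were found among the 57500 genes of the count tables. The 18 libraries came from 3 stable THP-1 lines, each transduced with lentiviral particles and kept under puromycin: shNT carried a non-target hairpin, shNR4A2 a hairpin against the orphan nuclear receptor NR4A2, and shNR4A3 a hairpin against NR4A3. Each line was left unstimulated (control) or given 2.5 µg/ml lipopolysaccharide (LPS), the bacterial ligand of TLR4, for 2 hours, with 3 libraries per group. One line stood for each hairpin, so an effect of the hairpin and a property of the line cannot be told apart. Poly(A)-selected RNA was sequenced and between 16171161 and 23929138 reads were counted to genes per library.

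The 9 factors act in a network that carries blood progenitors to monocytes and granulocytes. PU.1, the product of SPI1, and C/EBPα, the product of CEBPA, open and occupy the enhancers of most myeloid genes, whereas C/EBPβ, C/EBPδ and C/EBPε take over in inflammation and in terminal differentiation. RUNX1 acts upstream of SPI1, GFI1 is a repressor that favours granulocytes over monocytes, KLF4 drives monocyte differentiation, and MYB keeps progenitors and leukaemic cells proliferating.

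The libraries expressed markers of monocytic cells. All 9 monocytic markers examined (CD14, LYZ, CSF1R, ITGAM, CD33, CD68, CTSS, FCGR1A and S100A9) averaged at least 1 TPM (transcripts scaled to a fixed sum per library, a level corrected for gene length and library size), with a summed level of 569 to 1823 TPM and LYZ, which encodes lysozyme, with the highest mean over the 18 libraries. In shNT with LPS, CTSS averaged 162 TPM and LYZ 157 TPM. The 4 T cell markers together reached at most 1.15 TPM, the 4 erythroid markers at most 0.477 TPM and the 4 epithelial and fibroblast markers at most 1.31 TPM. The 3 megakaryocytic markers summed to between 4.56 and 13.1 TPM, led by GP9 at a median of 4.74 TPM, and the 4 B cell markers to between 4.14 and 13.6 TPM, led by PAX5 at a median of 3.32 TPM. No list held granulocyte or progenitor markers as such. The granule protein genes ELANE, CTSG, AZU1 and PRTN3 averaged 4154, 4126, 3095 and 2406 TPM in unstimulated shNT, each above the summed monocytic markers.

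The targets of the hairpins were read first, as a check of the labels. With LPS, NR4A2 stood at 62.2, 74.7 and 51.3 TPM in shNT and at 20.5, 28.3 and 14.8 TPM in shNR4A2, a decrease of 66.2% (log2 fold change -1.52 ± 0.19 (SE), adjusted p = 0.00265). NR4A3 stood at 30.9, 32.3 and 31.9 TPM in shNT with LPS and at 17.03, 18.2 and 16.7 TPM in shNR4A3, a decrease of 45.5% (log2 fold change -0.82 ± 0.08, adjusted p = 0.000556). The groups of each hairpin's own target did not overlap, and both targets rested on fewer counts without LPS (34 to 94 counts for NR4A2 and 1 to 21 for NR4A3 in the same lines). Adjusted p-values throughout are from edgeR's quasi-likelihood test with Benjamini-Hochberg adjustment over all genes tested, and a gene was called at an adjusted p under 0.05. Where replicate numbers of a comparison pair its libraries, a fit that also has a term for the replicate (the blocked fit) was made. Its value is given if it changed a call, or if a call was lost with 1 library left out. The fits with 1 library left out had no replicate term. The mean of NR4A2 with LPS in shNR4A3 was 25.1% below that of shNT, in groups that overlapped (log2 -0.36 ± 0.16, adjusted p = 0.198), and the blocked fit called it (-0.37 ± 0.07, adjusted p = 0.00132).

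The 9 genes lie on 9 chromosomes of GRCh38. On the minus strand, besides CEBPD, are SPI1 (chr11:47354860-47378576), CEBPA (chr19:33299934-33302564), CEBPE (chr14:23117304-23119616), RUNX1 (chr21:34787801-36004667), GFI1 (chr1:92474762-92486876) and KLF4 (chr9:107484852-107490482). CEBPB (chr20:50190734-50192689) and MYB (chr6:135181315-135219173) are on the plus strand. CEBPA, CEBPB and CEBPD each consist of 1 exon, whereas RUNX1 has 27 merged exons over 15574 bases. Some exons are shared with antisense genes: 231 bases of CEBPB with CEBPB-AS1, which was counted 13 to 44 times per library, 103 bases of MYB with MYB-AS1, counted 0 to 16 times, and 659 and 482 bases of CEBPA with AC008738.3 and AC008738.5, both listed at 0. Whether the counting used strand is not given in the sources used here, and the member genes had at least 563, 1432 and 2036 counts in these cases.

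The promoters of CEBPA, MYB, CEBPE and GFI1 are shown because these genes fell the most of the 9 with LPS in all 3 lines. Each runs 5′ to 3′ from 250 bases before to 50 bases after a start site in RefSeq (GRCh38.p14), at chr19:33302485-33302784 (minus strand), chr6:135181058-135181357 (plus), chr14:23119206-23119505 (minus) and chr1:92486050-92486349 (minus). Capitals mark the motif matches found.
CEBPA: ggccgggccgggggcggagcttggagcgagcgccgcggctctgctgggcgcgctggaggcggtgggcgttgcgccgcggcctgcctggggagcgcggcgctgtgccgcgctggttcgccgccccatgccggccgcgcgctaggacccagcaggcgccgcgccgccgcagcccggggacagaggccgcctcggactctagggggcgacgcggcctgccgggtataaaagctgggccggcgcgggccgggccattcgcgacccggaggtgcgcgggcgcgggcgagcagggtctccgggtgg
MYB: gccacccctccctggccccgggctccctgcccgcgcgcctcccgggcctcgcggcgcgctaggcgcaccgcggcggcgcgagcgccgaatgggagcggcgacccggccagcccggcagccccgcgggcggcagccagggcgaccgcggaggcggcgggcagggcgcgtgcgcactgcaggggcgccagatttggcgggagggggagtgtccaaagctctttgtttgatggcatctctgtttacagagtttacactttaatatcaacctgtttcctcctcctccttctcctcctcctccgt
CEBPE: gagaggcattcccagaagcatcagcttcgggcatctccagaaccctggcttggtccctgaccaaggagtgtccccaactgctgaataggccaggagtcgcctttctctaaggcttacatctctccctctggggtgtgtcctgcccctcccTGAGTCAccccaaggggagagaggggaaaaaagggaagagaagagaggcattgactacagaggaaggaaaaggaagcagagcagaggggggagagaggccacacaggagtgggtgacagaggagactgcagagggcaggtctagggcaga
GFI1: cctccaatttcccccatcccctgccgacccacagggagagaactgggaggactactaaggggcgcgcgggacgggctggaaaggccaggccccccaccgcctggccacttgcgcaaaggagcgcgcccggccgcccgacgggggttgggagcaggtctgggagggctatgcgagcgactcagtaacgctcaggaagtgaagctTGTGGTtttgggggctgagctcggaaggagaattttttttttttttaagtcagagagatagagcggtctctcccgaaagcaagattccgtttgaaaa
In the RefSeq table used here, 10 such promoters matched 7 of the 9 genes (3 for GFI1 and 2 for CEBPB); SPI1 and CEBPD were not matched. The GFI1 promoter shown is the one of its 3 with a motif match, and its start site lies 777 bases from the deposited gene start. The start site of another lies 49 bases away, and that promoter held no match and 63.333% C and G. RUNX1, which fell by less, had a promoter in the table with no match. On both strands, 7 motifs were searched. They were AAAGGTCA, the NBRE bound by NR4A receptors (in 1.216% of all 35116 promoters), TTGCNNCAA, used for C/EBP (1.985%), and GAGGAAGT of PU.1 (2.589%). The rest were TGANTCA of AP-1 (7.709%), TGACGTCA of CREB (1.848%), GGANTTTCC of NF-kappaB (1.643%) and TGTGGT of RUNX (13.074%). TTGCNNCAA cannot match TTGCGCAA, which the GFI1 promoter shown holds, so sites with that spacing were not searched. The search therefore cannot show that C/EBP sites are absent. The 10 promoters held 2 matches to the 7 patterns as written. These were TGAGTCA in the CEBPE promoter, starting at -100 from the start site, and TGTGGT in the GFI1 promoter shown, starting at -47. The C and G content was 80.667% for CEBPA, 71.0% for MYB, 59.667% for the GFI1 promoter shown and 57.667% for CEBPE, against a median of 58.667% over all promoters.

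Unstimulated shNT cells expressed the 9 factors at widely different levels. CEBPA was the most abundant, at 1102 ± 165 TPM (mean ± SD, n = 3), rank 96 of 19737 protein-coding genes. SPI1 followed at 571 ± 36.8 TPM, GFI1 at 404 ± 36.3 TPM and MYB at 287 ± 30.8 TPM. CEBPD at 103 ± 7.42, CEBPB at 79.4 ± 2.21 and RUNX1 at 65.1 ± 5.98 TPM formed a middle tier. KLF4 at 17.2 ± 2.08 TPM and CEBPE at 7.47 ± 0.538 TPM were the lowest, and no neighbours in this order overlapped between libraries. After 2 hours of LPS the order in shNT changed: SPI1 led at 748 ± 91.9 TPM, CEBPA stood at 219 ± 63.6 TPM and CEBPD at 129.9 ± 14.2 TPM. CEBPB at 80.2 ± 5.81, MYB at 76.3 ± 14.6 and GFI1 at 70.0 ± 21.1 TPM then overlapped with one another, above RUNX1 at 45.3 ± 6.14, KLF4 at 16.1 ± 3.21 and CEBPE at 2.07 ± 0.683 TPM.

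**Figure D1:**
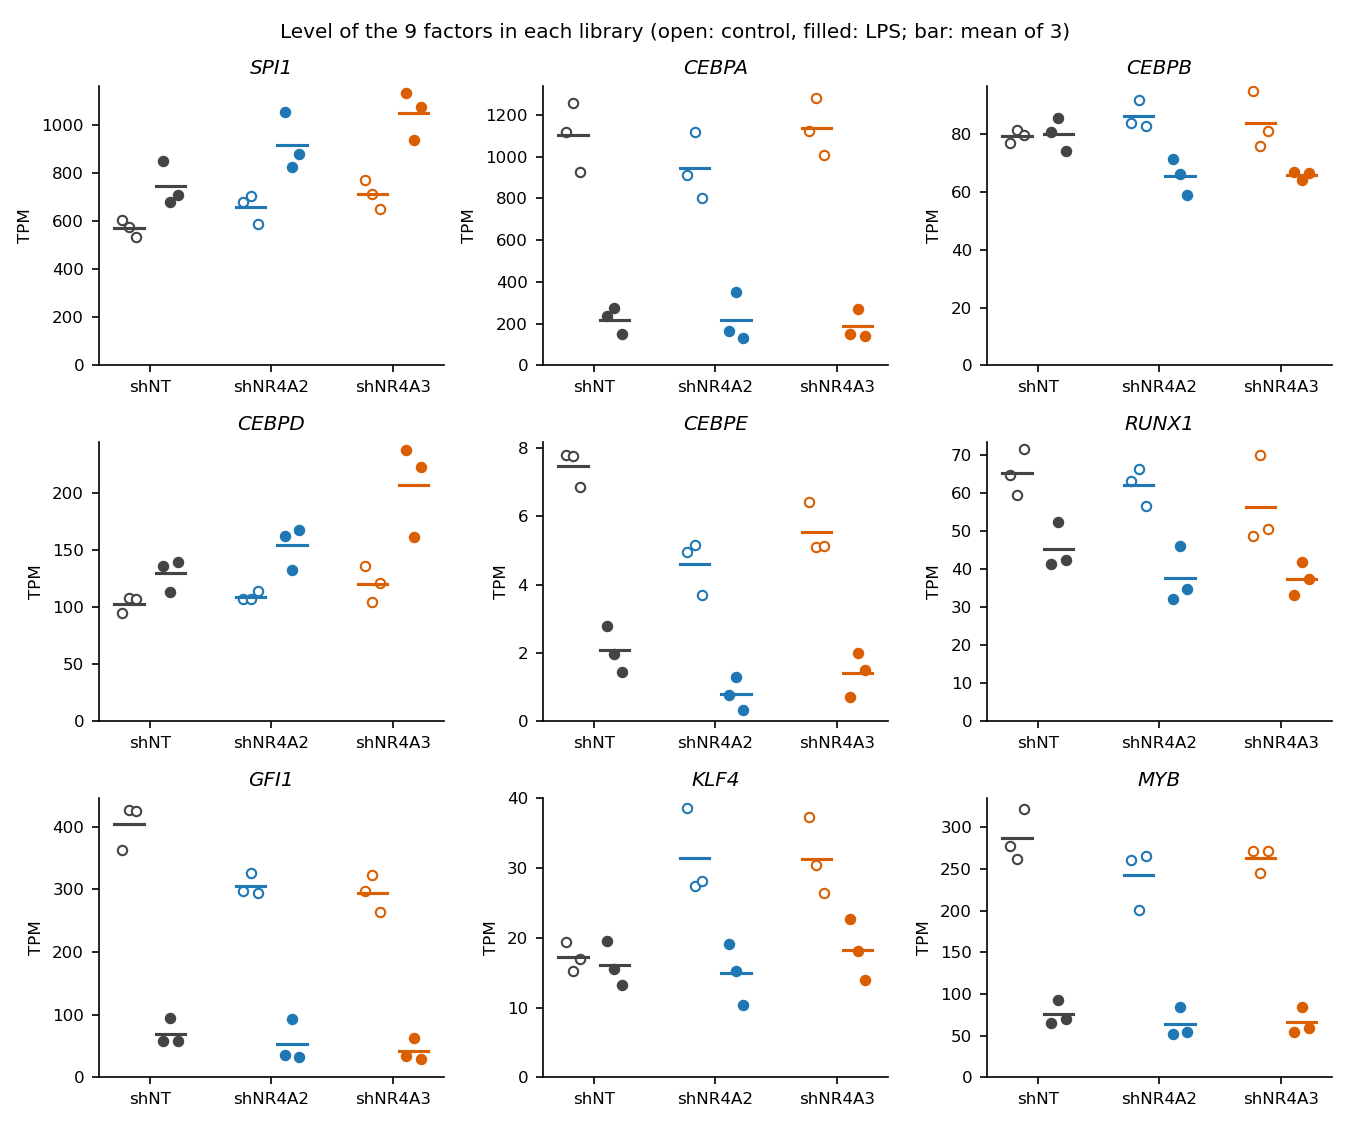
TPM of each of the 9 factors (1 panel a gene, linear axes from 0) in the 18 libraries, by line; open points are control libraries, filled points LPS libraries and bars the mean of 3. CEBPA, GFI1, MYB and CEBPE are lower with LPS in every line, and the open KLF4 points of both knockdown lines lie above those of shNT.

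The first comparison asked how LPS changed the 9 factors in each line. In shNT, 7 of 9 were called, 5 lower and 2 higher, where 24.9% of the 15711 genes tested were called (13.3% lower and 11.6% higher). In shNR4A2, 8 of 9 were called, 6 lower and 2 higher, against 19.3% of genes (10.1% lower and 9.23% higher). In shNR4A3, 7 of 9 were called, 5 lower and 2 higher, against 28.1% of genes (15% lower and 13.1% higher). CEBPA, GFI1, MYB, CEBPE and RUNX1 fell and SPI1 and CEBPD rose in every line. With a change of at least 2-fold required, 4 of 9 were left in shNT (background 7.56%), 4 in shNR4A2 (8.76%) and 5 in shNR4A3 (10.3%). LPS shifted the TPM of the median gene by -0.23 (log2) in shNT, -0.28 in shNR4A2 and -0.24 in shNR4A3, whereas the fitted log2 fold changes given here are relative to a median gene near 0. All lines' controls are separate libraries, so the 3 LPS comparisons share no sample. Same-numbered libraries of different lines nevertheless deviated together (correlations of 0.159 to 0.533), so the 3 comparisons are not independent.

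CEBPA, the master regulator of myeloid commitment, showed one of the deepest falls. In shNT it stood at 1119.8, 1258 and 928 TPM in control libraries and at 236, 273 and 149 TPM with LPS. In shNR4A2 it went from 912, 1119.8 and 804 TPM to 166, 351 and 132 TPM, and in shNR4A3 from 1121, 1281 and 1009.6 TPM to 150.2, 271 and 141 TPM. Control and LPS libraries were far apart in each line, and the LPS library of replicate 2 was the highest of its group each time. The fitted fold change was 4.36-fold lower in shNT (log2 -2.12 ± 0.18 (SE), adjusted p = 7.31e-07), 3.70-fold lower in shNR4A2 (-1.89 ± 0.27, adjusted p = 0.000277) and 5.23-fold lower in shNR4A3 (-2.39 ± 0.19, adjusted p = 5.19e-06).

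GFI1, the zinc-finger repressor, fell by a similar measure. Its control libraries stood at 363, 426 and 425 TPM in shNT and its LPS libraries at 57.6, 94.4 and 57.9 TPM. In shNR4A2 the values were 297, 326 and 295 TPM without and 35.9, 92.8 and 33.3 TPM with LPS, and in shNR4A3 298, 322 and 263 TPM without and 34.3, 62.4 and 29.98 TPM with LPS. The groups did not overlap in any line, and replicate 2 again held the highest LPS value. The decrease was 4.995-fold in shNT (log2 -2.32 ± 0.15, adjusted p = 4.94e-08), 4.82-fold in shNR4A2 (-2.27 ± 0.28, adjusted p = 0.000102) and 6.03-fold in shNR4A3 (-2.59 ± 0.21, adjusted p = 4.44e-06).

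MYB, which sustains proliferation of leukaemic blasts, went from 277, 263 and 322 TPM to 65.6, 92.9 and 70.2 TPM in shNT. In shNR4A2 it went from 261, 201 and 265 TPM to 52.7, 84.7 and 54.6 TPM, and in shNR4A3 from 272, 245 and 272 TPM to 54.5, 84.0 and 59.6 TPM. No control library came near an LPS library, and the LPS value of replicate 2 was again the highest in each line. Of the 9 factors, MYB had the narrowest range of change between lines, at 3.24-fold lower in shNT (log2 -1.70 ± 0.11, adjusted p = 4.67e-08), 3.17-fold in shNR4A2 (-1.67 ± 0.16, adjusted p = 1.11e-05) and 3.43-fold in shNR4A3 (-1.78 ± 0.13, adjusted p = 2.59e-06).

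CEBPE, the factor of late granulocyte maturation, was weakly expressed but fell in every line. It was counted 69, 58 and 56 times in the shNT control libraries and 25, 17 and 14 times with LPS, 50, 42 and 35 against 6, 11 and 3 times in shNR4A2, and 50, 35 and 40 against 6, 14 and 14 times in shNR4A3. The groups did not overlap, although counts this low leave wide errors. In both knockdown lines CEBPE passed the filter on low counts through the control libraries, where it is high, so its calls there are no support for the counts of 8 and 7 factors called. The log2 fold changes were -1.63 ± 0.28 (adjusted p = 0.000610), -2.25 ± 0.41 (adjusted p = 0.00184) and -1.77 ± 0.35 (adjusted p = 0.00283) in shNT, shNR4A2 and shNR4A3.

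RUNX1, a factor needed for definitive haematopoiesis, fell by a smaller amount. Its levels were 59.4 to 71.3 TPM without and 41.2 to 52.4 TPM with LPS in shNT, 56.6 to 66.2 and 32.2 to 46.1 TPM in shNR4A2, and 48.7 to 69.8 and 33.1 to 41.8 TPM in shNR4A3. The log2 fold change was -0.30 ± 0.09 in shNT (adjusted p = 0.0232), -0.46 ± 0.13 in shNR4A2 (adjusted p = 0.0252) and -0.36 ± 0.12 in shNR4A3 (adjusted p = 0.0402). These calls depended on several of the libraries. In shNT the call was lost without replicate 1 or 3 of either state (adjusted p = 0.0604 to 0.122), in shNR4A2 without control replicate 1 or 2 or LPS replicate 1 or 3 (0.0753 to 0.127), and in shNR4A3 without control replicate 2 or LPS replicate 1 or 3 (0.109649 to 0.136). In 1 fit of all 18 libraries the call in shNT was also lost (adjusted p = 0.0796). The blocked fit kept the calls in shNR4A2 (-0.46 ± 0.09, adjusted p = 0.00368) and shNR4A3 (-0.35 ± 0.08, adjusted p = 0.00387).

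SPI1 rose with LPS. Its product PU.1 is needed for macrophage and B cell fates and for the expression of many pattern-recognition receptors. In shNT it stood at 606, 575 and 532 TPM without and at 852, 681 and 709 TPM with LPS. In shNR4A2 it stood at 679.6, 705 and 588 TPM without and 1053, 824 and 880.3 TPM with LPS, and in shNR4A3 at 773, 713 and 651 TPM without and 1132, 939 and 1073 TPM with LPS. All LPS libraries lay above all control libraries of their line. The rise was 1.52-fold in shNT (log2 0.61 ± 0.10, adjusted p = 0.000675), 1.69-fold in shNR4A2 (0.76 ± 0.15, adjusted p = 0.00282) and 1.73-fold in shNR4A3 (0.79 ± 0.12, adjusted p = 0.000499).

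CEBPD (chr8:47736909-47739086, minus strand), an acute-phase member of the C/EBP family, also rose. In shNT it went from 94.8, 108 and 107 TPM to 136, 114 and 139.9 TPM, in shNR4A2 from 107, 107 and 114 TPM to 163, 133 and 168 TPM, and in shNR4A3 from 137, 104 and 122 TPM to 238, 162 and 223 TPM. The groups did not overlap within any line, and in each the lowest LPS library was replicate 2. The rise was 1.47-fold in shNT (log2 0.55 ± 0.11, adjusted p = 0.00203), 1.71-fold in shNR4A2 (0.78 ± 0.14, adjusted p = 0.00164) and 2.02-fold in shNR4A3 (1.01 ± 0.17, adjusted p = 0.00120).

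CEBPB, the factor that binds many cytokine promoters, was not called in any line. It stood at 77.045, 81.4 and 79.6 TPM without and at 80.8, 85.7 and 74.1 TPM with LPS in shNT (log2 0.23 ± 0.09, adjusted p = 0.0834). In shNR4A2 the values were 83.9, 91.7 and 82.9 TPM without and 71.4, 66.2 and 59.0 TPM with LPS (log2 -0.13 ± 0.13, adjusted p = 0.558), and in shNR4A3 94.9, 76.0 and 81.1 TPM without and 66.8, 64.1 and 66.5 TPM with LPS (-0.13 ± 0.12, adjusted p = 0.480). On the TPM scale the groups of both knockdown lines did not overlap, but most of that distance was the shift of the median gene.

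KLF4 was the member whose LPS change differed most in value between the lines. In shNT it stood at 19.4, 15.3 and 16.9 TPM without and at 19.5, 15.5 and 13.2 TPM with LPS, groups that overlapped (log2 0.12 ± 0.15, adjusted p = 0.627; the ratio of mean TPM was 0.933, on the other side of 1). In shNR4A2 it went from 38.6, 27.5 and 28.1 TPM to 19.2, 15.3 and 10.4 TPM (log2 -0.81 ± 0.22, adjusted p = 0.0200), and in shNR4A3 from 37.3, 30.4 and 26.4 TPM to 22.7, 18.1 and 14.0 TPM (-0.55 ± 0.19, adjusted p = 0.0527). Control and LPS libraries did not overlap in either knockdown line. In the blocked fit the fall was called in shNR4A3 (log2 -0.56 ± 0.09, adjusted p = 0.000626) and in shNR4A2 (-0.82 ± 0.12, adjusted p = 0.000509). In the fit without a replicate term the call in shNR4A2 was lost without control replicate 1 or LPS replicate 3 (adjusted p = 0.0575 to 0.0787).

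**Figure D2:**
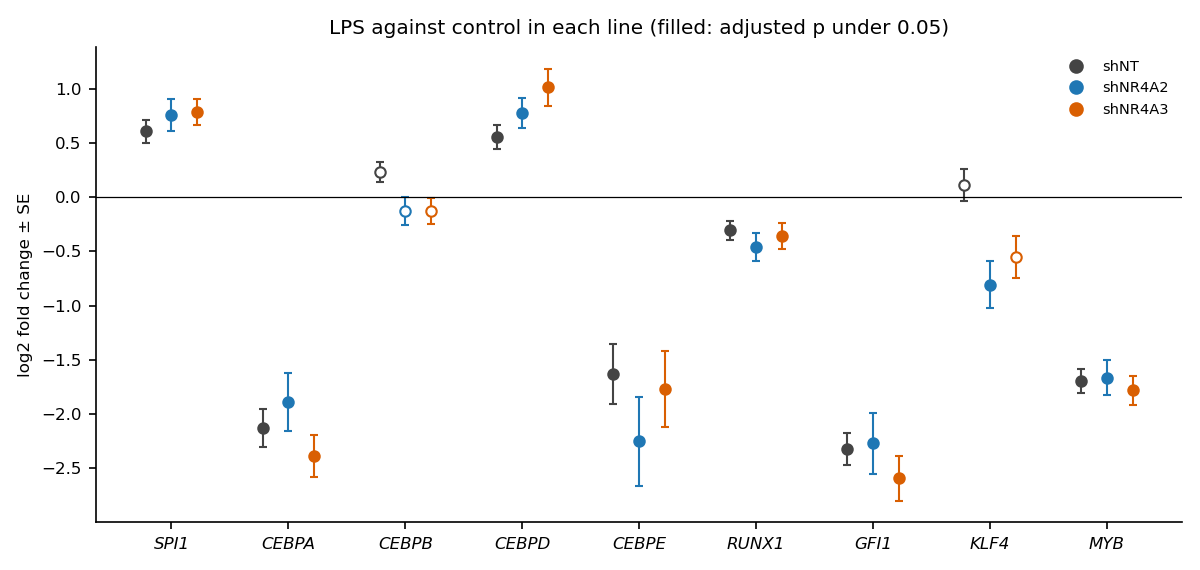
Log2 fold change of LPS against control (vertical axis, edgeR fit; bars are 1 SE) for the 9 factors in shNT, shNR4A2 and shNR4A3, 3 libraries a group; filled points have an adjusted p under 0.05. CEBPA, CEBPE, GFI1 and MYB lie between -1.63 and -2.59 in all lines, SPI1 and CEBPD lie above 0, and KLF4 is at 0.12 in shNT and at -0.81 and -0.55 in the knockdown lines.

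Whether the LPS change itself differed between a knockdown line and shNT was tested by an interaction term over 12 libraries. None of the 9 factors was called by edgeR with either hairpin, and 0% of the 16674 and 16428 genes tested were called (365 and 824 genes had an unadjusted p under 0.05, and DESeq2 called 2 and 10 genes). Among the 9, KLF4 and CEBPB were the 2 with an unadjusted p under 0.05 in each, and DESeq2 called 0. Both interactions use the same shNT libraries, so their values are not independent. The LPS change of KLF4 was lower by a log2 difference of -0.92 ± 0.29 (SE) in shNR4A2 (adjusted p = 0.999945) and -0.67 ± 0.27 in shNR4A3 (adjusted p = 0.942). The difference of KLF4 in shNR4A2 was called by edgeR without the filter on low counts (-0.93 ± 0.21, adjusted p = 0.0202), a fit that called 29 of 44059 genes, and that in shNR4A3 was not (adjusted p = 0.153). For CEBPB the differences were -0.35 ± 0.15 (adjusted p = 0.999945) and -0.36 ± 0.15 (adjusted p = 0.942).

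The 4 C/EBP factors bind similar sequences and pair with one another, so their makeup was described as shares of their summed TPM. The shares are of these 4 only. CEBPG, another gene of the family, is not in the sum and averaged 109 TPM in shNT without and 82.2 TPM with LPS. In unstimulated shNT cells CEBPA made up 85.1% ± 2.07 (SD, n = 3) of the sum, CEBPD 8.10% ± 1.27, CEBPB 6.21% ± 0.788 and CEBPE 0.582% ± 0.0415. With LPS the sum fell from 1292 ± 166 to 431 ± 58.8 TPM, and CEBPA made up 50.1% ± 8.46, CEBPD 30.7% ± 7.25 and CEBPB 18.7% ± 1.42. In shNR4A2 the CEBPA share went from 82.3% ± 2.29 to 47.3% ± 14.4. In shNR4A3 it went from 84.3% ± 2.70 to 40.0% ± 12.4, with CEBPD at 45.4% ± 11.2. The control and LPS shares of CEBPA did not overlap in any line (exact two-sided permutation test, p = 0.1 in each, the smallest that 3 against 3 libraries allow). CEBPA transcripts outnumbered CEBPD transcripts 10.7 ± 1.78 to 1 in unstimulated shNT cells and 1.73 ± 0.668 to 1 after LPS, and the ratio was 0.979 ± 0.601 in shNR4A3 with LPS, from 0.631 to 1.67 among its libraries.

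**Figure D3:**
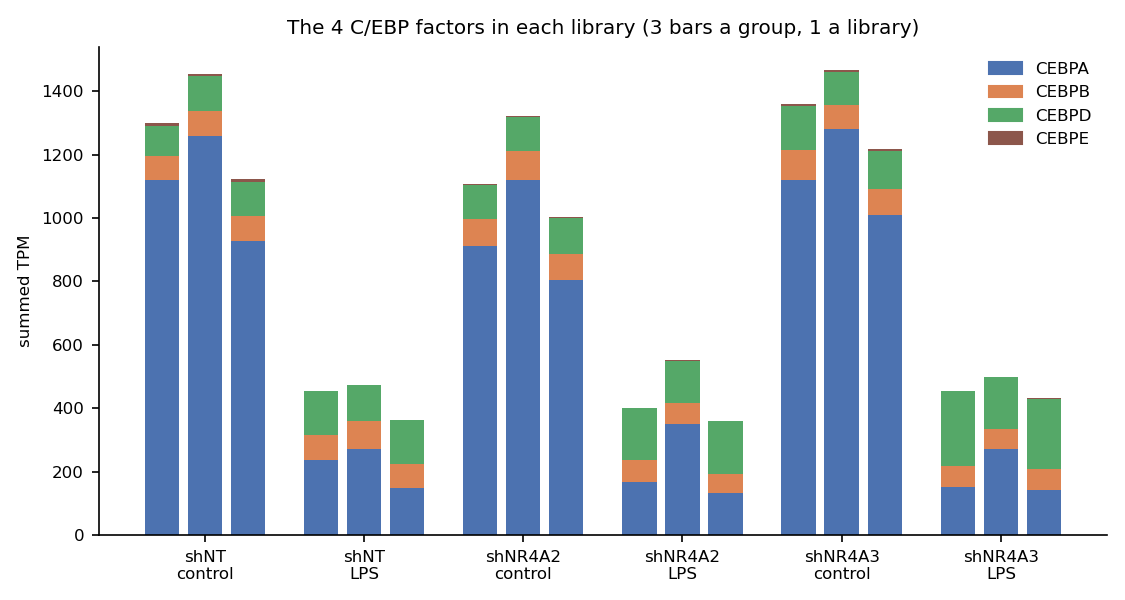
Summed TPM of CEBPA, CEBPB, CEBPD and CEBPE (stacked, linear axis from 0) in each of the 18 libraries, 3 bars a group. The CEBPA block shrinks with LPS in all lines while the CEBPD blocks are taller, and CEBPE is barely visible.

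The next comparisons set each knockdown line against shNT. Both lines share the shNT libraries as their control, so their values are given side by side and are not independent. Without LPS, 2 of 9 factors were called in shNR4A2 (GFI1 and KLF4), where 6.45% of genes were called, and 3 of 9 in shNR4A3 (SPI1, GFI1 and KLF4), where 7.23% were called. With LPS, 0 of 9 were called in shNR4A2 by edgeR (background 6.96%), with 2 at an unadjusted p under 0.05 and 0 by DESeq2, and 2 of 9 (SPI1 and CEBPD) in shNR4A3 (background 6.45%). In the blocked fit the counts were 6 and 3 without LPS and 7 and 5 with LPS, where 23.6%, 14.8%, 28.1% and 21.8% of all genes were called.

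KLF4 was higher in both knockdown lines before LPS. Its 17.2 ± 2.08 TPM in shNT compared with 31.4 ± 6.27 TPM in shNR4A2 and 31.4 ± 5.52 TPM in shNR4A3, and every control library of both knockdown lines lay above every control library of shNT. The increase was 1.83-fold in shNR4A2 (log2 0.87 ± 0.16, adjusted p = 0.00668) and 1.89-fold in shNR4A3 (0.92 ± 0.15, adjusted p = 0.00181). Within each replicate number the log2 ratio of TPM to shNT was 0.99, 0.84 and 0.73 in shNR4A2 and 0.94, 0.99 and 0.64 in shNR4A3. With LPS the groups overlapped, at log2 -0.05 ± 0.22 (adjusted p = 0.929) and 0.25 ± 0.20 (adjusted p = 0.494).

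GFI1 was lower in both lines before LPS. The control libraries of shNT (363 to 426 TPM) lay above those of shNR4A2 (295 to 326 TPM) and shNR4A3 (263 to 322 TPM). The decrease was 1.32-fold in shNR4A2 (log2 -0.40 ± 0.10, adjusted p = 0.0415) and 1.33-fold in shNR4A3 (-0.41 ± 0.10, adjusted p = 0.0214). The call was lost in shNR4A2 without replicate 2 or 3 of shNT or replicate 1 or 3 of shNR4A2 (adjusted p = 0.109575 to 0.167) and in shNR4A3 without replicate 2 or 3 of shNT or replicate 3 of shNR4A3 (0.0517 to 0.105). The blocked fit kept both calls, at -0.40 ± 0.06 (adjusted p = 0.000411) and -0.41 ± 0.08 (adjusted p = 0.00615). With LPS the values were log2 -0.34 ± 0.33 in shNR4A2 (adjusted p = 0.592) and -0.68 ± 0.25 in shNR4A3 (adjusted p = 0.135). These values depended on replicate 2. Without the LPS replicate 2 of shNR4A2 the value was -0.91 (adjusted p = 0.0189), and without that of shNR4A3 it was -1.02 (adjusted p = 0.00605). The blocked fit called both, at -0.43 ± 0.09 (adjusted p = 0.000120461) and -0.70 ± 0.08 (adjusted p = 2.64e-05).

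SPI1 was higher in shNR4A3, by 1.29-fold without LPS (log2 0.37 ± 0.10, adjusted p = 0.0411) and by 1.46-fold with LPS (0.55 ± 0.12, adjusted p = 0.0297). The shNR4A3 libraries lay above the shNT libraries in both states (651 to 773 against 532 to 606 TPM, and 939 to 1132 against 681 to 852 TPM). No call without LPS was left when any 1 of the 6 libraries was left out (adjusted p = 0.0570 to 0.164), and the call with LPS was lost without LPS replicate 2 or 3 of shNT or 1 or 3 of shNR4A3 (0.0947 to 0.123). The blocked fit of all 6 libraries kept the call without LPS (0.37 ± 0.06, adjusted p = 0.00405) and with LPS (0.55 ± 0.06, adjusted p = 2.05e-05). In shNR4A2 the values were 0.20 ± 0.11 without LPS (adjusted p = 0.326) and 0.36 ± 0.14 with LPS (adjusted p = 0.170), and the blocked fit called both, at 0.20 ± 0.05 (adjusted p = 0.0170) and 0.35 ± 0.07 (adjusted p = 9.15e-05).

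CEBPD was called against shNT in shNR4A3 with LPS. It stood there at 162 to 238 TPM, above the 114 to 139.9 TPM of shNT (1.67-fold, log2 0.74 ± 0.17, adjusted p = 0.0300). That call was lost without any 1 of the 3 shNT libraries or without LPS replicate 1 or 3 of shNR4A3 (adjusted p = 0.0568 to 0.120), and without LPS replicate 2 of shNR4A3 the adjusted p was 0.000734. The blocked fit kept the call (0.72 ± 0.07, adjusted p = 1.05e-05). In shNR4A2 with LPS it stood at 133 to 168 TPM (log2 0.31 ± 0.15, adjusted p = 0.244), called in the blocked fit (0.31 ± 0.07, adjusted p = 0.000579) and without LPS replicate 2 of shNR4A2 (adjusted p = 0.0498). Without LPS the values were 0.08 ± 0.10 in shNR4A2 (adjusted p = 0.702) and 0.28 ± 0.12 in shNR4A3 (adjusted p = 0.206), and the interaction of CEBPD with shNR4A3 was 0.46 ± 0.23 (adjusted p = 0.99876).

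The other members were not called against shNT in the edgeR fits of 6 libraries without a replicate term. CEBPA without LPS was at log2 -0.22 ± 0.16 in shNR4A2 (adjusted p = 0.461; -0.22 ± 0.05, adjusted p = 0.00847 in the blocked fit) and 0.08 ± 0.12 in shNR4A3 (adjusted p = 0.758). MYB without LPS was at -0.24 ± 0.11 in shNR4A2 (adjusted p = 0.240; -0.25 ± 0.06, adjusted p = 0.0146 blocked) and -0.07 ± 0.09 in shNR4A3 (adjusted p = 0.715). CEBPE, at 56 to 69 counts in shNT and 35 to 50 in both knockdown lines, was at -0.70 ± 0.23 in shNR4A2 (adjusted p = 0.0980; 0.0223 blocked) and -0.38 ± 0.22 in shNR4A3 (adjusted p = 0.374). With LPS, CEBPE passed the filter on low counts through shNT, where it was highest, and its value of -1.31 ± 0.47 in shNR4A2 (adjusted p = 0.135; 0.0232 blocked and 0.0494 with all 18 libraries in 1 fit) rests on 3 to 11 counts per shNR4A2 library. RUNX1 lay between -0.22 and -0.06, and CEBPB was at 0.12 and 0.13 without and -0.23 and -0.22 with LPS. With LPS the blocked fit also called RUNX1 (adjusted p = 0.00999 and 0.0179) and CEBPB (0.0215 and 0.0491) in shNR4A2 and shNR4A3, and MYB (0.0148) in shNR4A2.

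**Figure D4:**
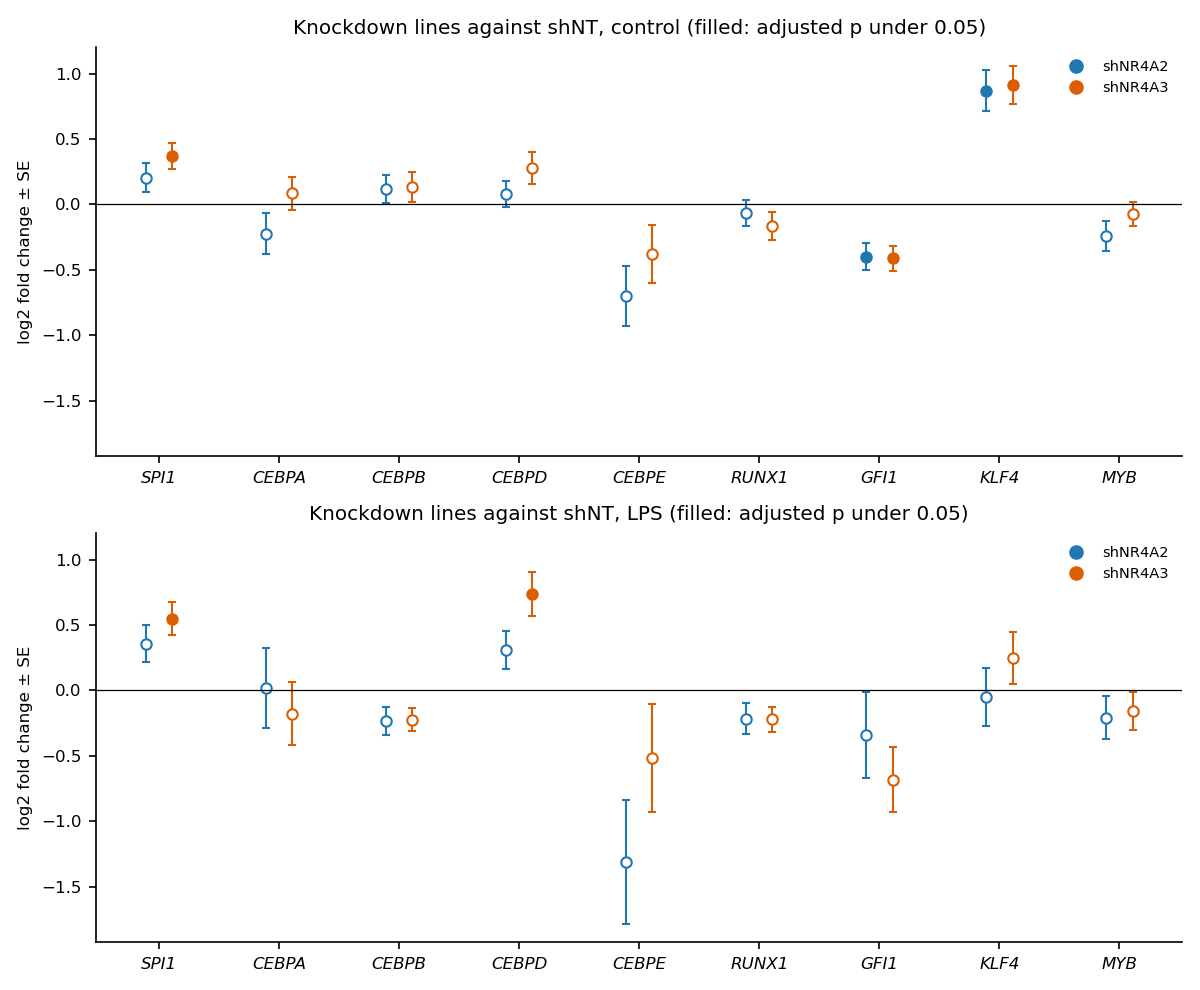
Log2 fold change of each knockdown line against shNT (vertical axis, edgeR fit; bars are 1 SE) for the 9 factors, without LPS (upper panel) and with LPS (lower panel), 3 libraries a group; filled points have an adjusted p under 0.05. KLF4 stands at 0.87 and 0.92 without LPS and at -0.05 and 0.25 with LPS, and SPI1 lies above 0 in all 4 comparisons.

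The summed level of the monocytic markers differed between the lines. It was 726 ± 93.7 TPM in unstimulated shNT, 1285 ± 198 TPM in shNR4A2 and 1570.5 ± 244 TPM in shNR4A3, and 619 ± 58.6, 1073 ± 78.8 and 1313 ± 175 TPM with LPS, carried mostly by LYZ (192, 615 and 883 TPM without LPS). In unstimulated shNT, shNR4A2 and shNR4A3, CD14 averaged 22.6, 50.2 and 39.9 TPM, CSF1R 85.0, 145 and 166 TPM, ITGAM 29.4, 44.2 and 49.5 TPM, S100A9 86.3, 108 and 120.1 TPM and CD68 2.69, 3.197 and 4.83 TPM, each mean higher in both knockdown lines. Libraries overlapped those of shNT for S100A9 in both lines, for CD68 in shNR4A2 and for CD14 in shNR4A3. Of the monocytic markers, edgeR called 3 in shNR4A2 and 4 in shNR4A3 without LPS (DESeq2 4 and 2), beside 6.45% and 7.23% of all genes. CTSS averaged 172, 165 and 177 TPM, CD33 38.8, 41.9 and 36.6 TPM and FCGR1A 96.7, 113 and 92.9 TPM, with no common direction. The B cell markers summed to 11.6 ± 2.37 TPM in unstimulated shNT and to 9.83 ± 1.26 and 6.84 ± 0.729 TPM in unstimulated shNR4A2 and shNR4A3. The megakaryocytic markers summed to 9.69 ± 3.08, 6.62 ± 1.37 and 5.69 ± 0.856 TPM without and 9.38 ± 0.312, 5.76 ± 1.48 and 5.69 ± 1.31 TPM with LPS in shNT, shNR4A2 and shNR4A3. No marker of these lists other than HBG1 was at 0 in every library. The part of these differences between the lines in the values of KLF4, GFI1, SPI1 and CEBPD was not tested. In bulk RNA, fewer cells expressing a gene and less RNA per cell cannot be told apart.

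The knockdown lines were also set against each other. Without LPS, 0 of 9 factors were called between shNR4A2 and shNR4A3 by edgeR (background 3.08%), with 1 at an unadjusted p under 0.05, and with LPS 0 of 9 (background 2.33%), again with 1. DESeq2 called 0 in both. The blocked fit called 1 without LPS, CEBPA (log2 -0.32 ± 0.07, adjusted p = 0.00893; background 11.6%), and 4 with LPS (background 23.6%): CEBPD at -0.42 ± 0.06 (adjusted p = 0.000307), SPI1 at -0.19 ± 0.05 (adjusted p = 0.0135) and KLF4 at -0.30 ± 0.09 (adjusted p = 0.0246), all lower in shNR4A2, and GFI1 at 0.28 ± 0.09 (adjusted p = 0.0359), higher in shNR4A2. With 1 library left out of the fit without the replicate term, GFI1 ranged from -0.22 to 0.68, so its direction rests on single libraries.

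For MYB and GFI1, LPS libraries of replicate 2 stood apart in all lines. Within each replicate number, the log2 ratio of LPS to control TPM of MYB was -2.08, -1.50 and -2.20 in shNT, -2.31, -1.25 and -2.28 in shNR4A2, and -2.32, -1.54 and -2.19 in shNR4A3, for replicates 1, 2 and 3. For GFI1 the ratios were -2.65, -2.17 and -2.87, then -3.05, -1.81 and -3.15, then -3.12, -2.37 and -3.14. Replicate 2 thus had the smallest fall of both genes in every line. CEBPA ratios of replicate 2 were -2.20, -1.67 and -2.24 in shNT, shNR4A2 and shNR4A3. Replicates 1 and 3 had -2.25 and -2.64, -2.45 and -2.60, and -2.90 and -2.84. Replicate 2 thus stood apart for CEBPA in both knockdown lines but not in shNT. It also had the smallest rise of SPI1 (0.24, 0.23 and 0.40) and of CEBPD (0.07, 0.31 and 0.64) in each line. RUNX1 fell least in replicate 2 of shNT (-0.18) and of shNR4A2 (-0.52). In shNR4A3 RUNX1 went the other way, at -0.74 in replicate 2 against -0.56 and -0.43. For CEBPB, CEBPE and KLF4, replicate 2 did not have the smallest change in every line. Replicate 2 libraries had 1.05 to 1.96% of counts on mitochondrial genes, against 1.31 to 2.19% in replicates 1 and 3, and the part of any such difference in these ratios was not tested. With all replicates numbered 2 left out, an alternative chosen after the data were seen, 7, 7 and 6 of 9 factors were called for LPS in shNT, shNR4A2 and shNR4A3, beside 2754 of 15949, 3389 of 16190 and 4501 of 15614 genes.

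**Figure D5:**
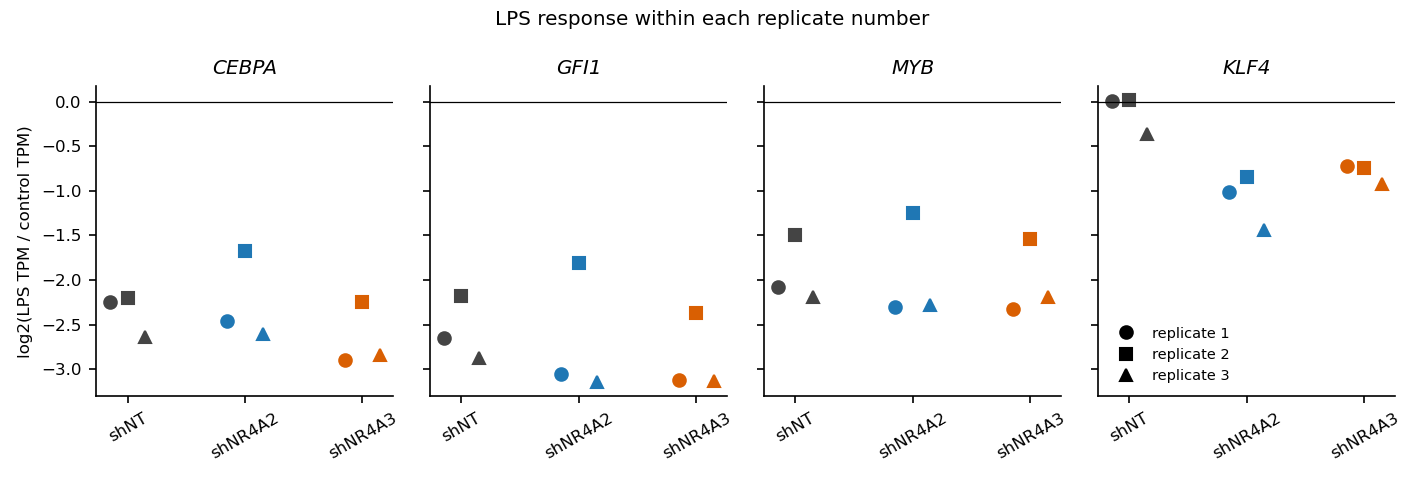
Log2 ratio of LPS to control TPM within each replicate number (symbols) for CEBPA, GFI1, MYB and KLF4 in the 3 lines. Squares, replicate 2, are the highest in each line for CEBPA, GFI1 and MYB, and all KLF4 ratios of the knockdown lines lie below those of shNT.

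Across the 18 libraries, CEBPA, GFI1 and MYB varied together. The correlation of log2(TPM + 1) was 0.981 between CEBPA and GFI1, 0.970 between CEBPA and MYB and 0.982 between GFI1 and MYB. The 18 libraries include both control and LPS libraries, and the part of the LPS difference in these values was not tested. SPI1 and CEBPD correlated at 0.894, and SPI1 with CEBPA at -0.764. Among 13974 genes with a mean of at least 1 CPM (counts scaled to a fixed sum per library), the genes most like CEBPA were LYL1 (r = 0.994), B3GNT8 (0.987) and TMEM229B (0.986). Those most like MYB were SNX18 (0.996), NFE2 (0.991) and MAP3K1 (0.988), those most like GFI1 were DOK3 (0.990495), ZFP64 (0.989) and ZNF318 (0.988), those most like RUNX1 were SP1 (0.971), THRAP3 (0.970384) and PATZ1 (0.968), and those most like CEBPE were CBFA2T3 (0.967), DCAF4 (0.966) and OXA1L (0.965). Genes like SPI1 included SLC43A2 (0.947) and P2RX4 (0.943), and CEBPD was most like ABCA6 (0.935), FNIP2 (0.929) and AC025580.2 (0.922). KLF4, at 0.914 with STK32C, 0.911 with TNFRSF21 and 0.901 with SCAMP2, and CEBPB, at 0.851 with UBE2M, 0.844 with FTSJ1 and 0.841 with MBIP, had less similar genes.

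Relatives and partners of the 9 factors were read as a list of 30 genes, of which 28 were tested. LPS changed 14 in shNT (10 higher, 4 lower), 14 in shNR4A2 (10 and 4) and 15 in shNR4A3 (10 and 5), or 50%, 50% and 53.6% of the list beside 24.9%, 19.3% and 28.1% of all genes tested, with median log2 fold changes of 0.09, 0.09 and 0.12 against -0.01, -0.02 and -0.01 over all genes. ATF3, a stress-induced repressor (2.65, 2.51 and 3.24), and NFIL3, a bZIP factor related to C/EBP (2.37, 2.17 and 2.03), rose in all lines, whereas RUNX3, a RUNX1 paralog (-1.002, -1.11 and -1.29), and CBFA2T3, a corepressor (-1.03, -1.14 and -0.97), fell. KLF5 averaged 5.40, 5.16 and 3.32 TPM without and 16.5, 14.9 and 8.96 TPM with LPS in shNT, shNR4A2 and shNR4A3. In shNR4A2 without LPS the one gene of the list called against shNT was TRIB2, whose product drives degradation of C/EBPα (log2 1.23 ± 0.20, adjusted p = 0.00445). In shNR4A3 it was KLF5 without LPS, lower (-0.66 ± 0.18, adjusted p = 0.0378), and KLF10 with LPS, higher (0.75 ± 0.18, adjusted p = 0.0423), and in shNR4A2 with LPS 0 of 28 were called by edgeR (5 at an unadjusted p under 0.05, and 1 called by DESeq2). These counts of 0 or 1 of 28 stand beside 6.45% and 7.23% of all genes called without LPS and 6.96% and 6.45% with LPS in shNR4A2 and shNR4A3.

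Among 25 other lineage factors, 22 were tested with LPS. In shNT 15 were called (6 higher, 9 lower), in shNR4A2 16 (6 and 10) and in shNR4A3 17 (6 and 11), or 68.2%, 72.7% and 77.3% of those tested beside 24.9%, 19.3% and 28.1% of all genes. EGR2 (log2 6.76, 6.54 and 6.35), EGR1 (3.15, 3.16 and 3.52), both zinc-finger factors linked to macrophage fate, and BCL6, a repressor (3.65, 3.36 and 4.06), rose the most. NFE2, a megakaryocyte and erythroid bZIP factor (-3.22, -3.19 and -3.65), MYC (-2.74, -1.60 and -2.24) and LYL1 (-1.77, -1.76 and -2.09) fell the most. Against shNT without LPS, 4 of 21 were called in shNR4A2 (3 higher, 1 lower) and 7 of 20 in shNR4A3 (6 and 1). The shares of all genes called were 6.45% and 7.23%. The lower one was MYC in shNR4A2 (-0.62 ± 0.09, adjusted p = 0.00207) and EGR1 in shNR4A3 (-0.72 ± 0.17, adjusted p = 0.0246). With LPS, 3 and 4 of 22 were called, all higher, beside 6.96% and 6.45%. Without LPS, MAF, a macrophage factor, was higher in shNR4A2 (1.94 ± 0.28, adjusted p = 0.00233) and shNR4A3 (1.33 ± 0.26, adjusted p = 0.00795), and with LPS IRF8, which directs monocyte fate, was higher in shNR4A2 (0.62 ± 0.10, adjusted p = 0.00885) and shNR4A3 (0.79 ± 0.09, adjusted p = 0.00119).

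Genes known as myeloid targets of PU.1 and C/EBP were read in the same way. Of 27 or 28 tested of 29, LPS changed 9 in shNT (5 higher, 4 lower), 5 in shNR4A2 (3 and 2) and 8 in shNR4A3 (5 and 3), with TLR2 the largest rise in each (1.68, 1.64 and 1.63) and IL6R (-0.60, -0.53 and -0.68) among those that fell. These shares of 33.3%, 17.9% and 29.6% lay near the 24.9%, 19.3% and 28.1% of all genes called. Against shNT without LPS, 8 were higher and 0 lower in shNR4A2 and 10 higher and 1 lower in shNR4A3, and with LPS 6 and 1, and 10 and 1. The background was 3.63% of genes higher and 2.82% lower in shNR4A2 and 3.91% and 3.32% in shNR4A3 without LPS, and 4.31% and 2.65%, and 3.99% and 2.46%, with LPS. LYZ was the largest increase in all 4 (1.68, 2.25, 1.76 and 2.29), and CSF1R, the receptor of the monocyte growth factor M-CSF, was higher by 1.02 ± 0.12 (adjusted p = 0.000205) in shNR4A3 without LPS. CTSG, which encodes the granule protease cathepsin G, was lower in shNR4A3 in both states (-1.56 ± 0.18, adjusted p = 0.000151, and -1.66 ± 0.20, adjusted p = 0.00169). The list shares 7 genes with the monocytic markers, LYZ, CD14 and CSF1R among them.

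Of 12 inflammatory genes known as C/EBP targets, 9 were tested with LPS in each line, and these 9, which encode cytokines, chemokines and the prostaglandin synthase PTGS2, were called higher in every line, beside 11.6%, 9.23% and 13.1% of all genes called higher. TNF averaged 65.3, 72.6 and 31.4 TPM without and 2118, 2127 and 1868 TPM with LPS in shNT, shNR4A2 and shNR4A3. IL6, IL12B and CSF3 passed the filter on low counts through the LPS libraries, where they are high. Their calls for LPS are therefore no support for the count of 9. The other 6 also passed the filter among control libraries alone, and the list was chosen with earlier results of these data known. IL10 and the acute-phase genes LCN2 and SAA1 were not tested for LPS. Against shNT, IL6 was the one of the list called with LPS (1 of 9 and 1 of 10 tested, beside 6.96% and 6.45% of all genes), higher in shNR4A2 (1.69 ± 0.37, adjusted p = 0.0272) and shNR4A3 (1.83 ± 0.43, adjusted p = 0.0343). Without LPS, CCL2 (-1.56 ± 0.25, adjusted p = 0.00181) and TNF (-1.02 ± 0.21, adjusted p = 0.00970) were lower in shNR4A3 (2 of 6 tested, beside 7.23%). Of 7 MYB targets, LPS changed 3 of 6 tested in shNT, 3 of 7 in shNR4A2 and 4 of 7 in shNR4A3, beside 24.9%, 19.3% and 28.1% of all genes. The counts of both knockdown lines include CD34, which passed the filter on low counts there through the LPS libraries, where it is high. Its calls for LPS are therefore no support for these counts. MYC fell in each line as above, and CDK6 rose (0.46, 0.74 and 0.83). KIT, a stem cell factor receptor, fell in shNT (-0.66 ± 0.15, adjusted p = 0.00517) and shNR4A3 (-0.87 ± 0.19, adjusted p = 0.00568). CD34 rose in shNR4A2 (4.09 ± 0.47, adjusted p = 4.86e-05) and shNR4A3 (5.78 ± 0.65, adjusted p = 7.14e-05). In unstimulated shNR4A2 cells KIT (-1.03 ± 0.15, adjusted p = 0.00202), MYC (-0.62 ± 0.09, adjusted p = 0.00207) and BCL2 (-0.39 ± 0.09, adjusted p = 0.0300) were lower than in shNT (3 of 6 tested, beside 6.45% of all genes), and 0 of 6 tested were called in shNR4A3, beside 7.23% of all genes, by edgeR (2 at an unadjusted p under 0.05, and 0 called by DESeq2). CD34, at 1.05 TPM or less on average in every group, passed the filter on low counts in the LPS libraries through the knockdown lines, where it is high. It was the one of 7 called with LPS (beside 6.96% and 6.45% of all genes), higher in shNR4A2 (2.25 ± 0.42, adjusted p = 0.0144) and shNR4A3 (1.92 ± 0.37, adjusted p = 0.0155).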

How the data were processed

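RNA-seq libraries were made from poly(A)-selected RNA of 3 THP-1 lines with and without LPS, with 3 libraries per group that the study describes as independent experiments. Per the labels, reads were trimmed with Trimmomatic 0.36, aligned to GRCh38 with STAR 2.5.2b and counted per gene with featureCounts of Subread 1.5.2; the authors deposited 1 table of raw gene counts and gene lengths per library. The strand setting and annotation release are not given in the sources used here. Gene symbols came from GENCODE 29.

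TPM was computed from the counts and deposited lengths. Each comparison was fitted on its 6 libraries (12 for an interaction) with edgeR 4.0.16 in R 4.3.3 (filterByExpr, TMM, quasi-likelihood test, Benjamini-Hochberg over all genes), and tested on simulated data. DESeq2 1.42.0, other scalings, filters, fits and libraries left out were alternatives. Same-numbered libraries deviated together in 8 of the 11 comparisons (every correlation of deviations above 0.1, from 0.159 to 0.533); the exceptions were LPS in shNT (lowest 0.0598) and both interactions. The numbers are those of the labels. Pearson correlations used log2(TPM + 1).

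The 9 members and the lists were chosen with earlier results of these data known. In every comparison all 9 members, in each list up to 3 called genes per direction, the 3 genes most like each member, both hairpin targets and genes with shared exons could be named; some genes that this rule would name are not reported here.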

Additional observations from a re-analysis of the deposited data

How the results depend on the processing

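The 7, 8 and 7 factors called with LPS in shNT, shNR4A2 and shNR4A3 became 6, 8 and 7 with all 18 libraries in 1 fit (RUNX1 lost in shNT), 8, 8 and 8 with the replicate block, 6 to 7, 6 to 8 and 6 to 7 with 1 library left out, 7, 7 and 6 without the libraries numbered 2 (an alternative added after seeing the data), and 4, 4 and 5 with a 2-fold limit. Against shNT without LPS, the 2 factors of shNR4A2 became 6 with the replicate block, 1 with all 18 libraries in 1 fit, 1 to 2 with 1 library left out, and 0 without the libraries numbered 2 or with the 2-fold limit; the 3 of shNR4A3 became 1 in the 18-library fit, 1 to 2 with 1 library left out, 1 without the libraries numbered 2 and 0 with the 2-fold limit. With LPS, the 0 of shNR4A2 became 7 with the replicate block, 1 without the filter on low counts, 1 in the 18-library fit, 0 to 2 with 1 library left out and 1 without the libraries numbered 2; the 2 of shNR4A3 became 5 with the replicate block, 0 to 3 with 1 library left out and 0 with the 2-fold limit. Between the knockdown lines, 0 became 1 (replicate block, or without shNR4A2 control replicate 2; 0 to 1 with 1 library left out) without LPS and 1 (no filter) and 4 (replicate block) with LPS. The interaction of shNR4A2 had 1 call, KLF4, without the filter (adjusted p = 0.0202) and with the block (adjusted p = 0.0423; 8 of 16674 genes called). The numbers do not pair the libraries of the interactions or of LPS in shNT, where the block also called CEBPB (adjusted p = 0.0394); in shNR4A3 it added KLF4 (adjusted p = 0.000626).

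With 1 library left out, 19 of 99 ranges crossed 0, and 0 of these 19 belonged to a called value. CEBPA in shNR4A2 against shNT with LPS, 0.02, became -0.043 with the replicate block and -0.29 without the libraries numbered 2, and ranged from -0.45 to 0.26 with 1 library left out. The others include KLF4 with LPS in shNT (-0.041 to 0.23), KLF4 in shNR4A2 against shNT with LPS (-0.31 to 0.15), RUNX1 in shNR4A2 (-0.14 to 0.0086) and CEBPA in shNR4A3 (-0.053 to 0.22) against shNT without LPS, with LPS GFI1 (-0.22 to 0.68), CEBPA (-0.26 to 0.51) and MYB (-0.24 to 0.12) in shNR4A2 against shNR4A3, and the interaction of GFI1 with shNR4A2 (-0.51 to 0.30). Of 846 refitted fold changes of members, 763 kept their sign and their side of the threshold. A further 45 lost a call, 29 gained one and 9 changed sign. These 846 cover 68 results and not all 99 values that the ranges cover, and the causes were not tested. The 3 libraries a group, and 3 to 69 counts for CEBPE, limit what could be detected.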
